A study of Mus musculus with 11 samples.

Results

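The mouse gene Retnla and 9 other genes known from resident or alternatively activated macrophages were followed in heart RNA from a mouse model of polycystic ovary syndrome (PCOS). The members were taken by symbol (Retnla, Mrc1, Cd163, Folr2, Lyve1, Timd4, Clec10a, Mgl2, Chil3 and Arg1), and all 10 were found among the 21878 rows of the table. Of the 11 heart samples sequenced, 5 came from PCOS females, whose model was made by prenatal exposure to anti-Müllerian hormone, and 6 from control females given phosphate-buffered saline as the prenatal vehicle. All 11 samples carry the wild-type label, and the labels name no further allele or agent. The labels give no strain, age, hormone dose, litter or batch, and they do not say whether each library is a separate mouse, so the spread between samples may in part be technical. Retnla was chosen because an earlier look at this same comparison showed it lower in PCOS, so the members' differences between the groups are given as a description with no p-value.

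Tissue macrophages take up dying cells, haemoglobin and matrix fragments through scavenger receptors and lectins. In the mouse heart, long-lived resident macrophages are known for Timd4, Lyve1 and Folr2. Macrophages exposed to the type 2 cytokines interleukin-4 and interleukin-13 turn on Retnla, Chil3, Arg1 and Mrc1 through the transcription factor STAT6, a state called alternative activation. Retnla encodes resistin-like molecule alpha, a small secreted protein that is also known from adipose tissue. Since whole hearts were sequenced, fewer cells of a type and less RNA per cell cannot be told apart.

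The windows around the transcription start of Retnla, Chil3 and Mrc1 are shown because these genes are known products of alternative activation, yet their levels in these hearts were unlike each other. Each window is 300 bases from the RefSeq table of GRCm38.p6, 250 before the start and 50 from it, written 5′ to 3′ on the gene's own strand. Of the 10 members, 7 had a window in that table. Capitals mark every match, on either strand, to a STAT6-type motif (TTC and GAA with any 4 bases between them), a STAT motif with a shorter spacer (TTC and GAA with any 3 bases between them), a C/EBP-type motif (TTGCNNAA) and a PU.1-type core (GAGGAA).
Retnla, chr16:48842359-48842658, plus strand: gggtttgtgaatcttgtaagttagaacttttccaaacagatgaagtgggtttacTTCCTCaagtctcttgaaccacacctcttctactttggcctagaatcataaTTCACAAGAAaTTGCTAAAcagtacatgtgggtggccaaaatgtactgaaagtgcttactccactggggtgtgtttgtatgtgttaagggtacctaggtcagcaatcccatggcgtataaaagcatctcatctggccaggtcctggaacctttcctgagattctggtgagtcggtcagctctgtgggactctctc
Chil3, chr3:106167515-106167814, minus strand: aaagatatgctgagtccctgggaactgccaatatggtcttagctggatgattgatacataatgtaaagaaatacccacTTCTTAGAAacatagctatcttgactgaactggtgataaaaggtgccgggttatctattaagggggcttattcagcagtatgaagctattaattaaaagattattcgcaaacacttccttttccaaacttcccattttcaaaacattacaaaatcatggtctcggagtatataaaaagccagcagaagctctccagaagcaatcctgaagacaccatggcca
Mrc1, chr2:14229164-14229463, plus strand: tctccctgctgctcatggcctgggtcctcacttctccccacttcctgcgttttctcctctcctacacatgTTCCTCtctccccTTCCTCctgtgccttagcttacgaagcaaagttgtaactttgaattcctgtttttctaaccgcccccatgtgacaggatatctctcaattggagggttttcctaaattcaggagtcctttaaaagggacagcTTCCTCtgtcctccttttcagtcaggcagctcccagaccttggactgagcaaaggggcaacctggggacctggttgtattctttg
In Retnla the STAT6-type match TTCACAAGAA starts 145 bases before the transcription start, and the C/EBP-type match TTGCTAAA starts 134 bases before it, with no overlap between them. Chil3 held 1 match, to the STAT motif with the shorter spacer, 172 bases before its start. Mrc1 held 3 matches to the PU.1-type core, 180, 167 and 35 bases before its start, and Retnla held 1. Among all 32851 windows in the table, 6.95% held the STAT6-type motif, 8.30% the shorter STAT motif, 10.8% the C/EBP-type motif and 28.3% the PU.1-type core. These matches are letters in a window and do not show binding.

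Depth and a few libraries that stand apart bear on the values. Reads recovered from the FPKM values (fragments per kilobase of transcript and per 1 000 000 mapped, the authors' unit) summed to between 11866291 and 14346620 per sample, and the heart muscle genes Tnnt2 and Actc1 were at 7395 FPKM or more everywhere. Control replicate 6 held liver transcripts, with Alb, the gene of serum albumin, at 852 FPKM against at most 1.06 FPKM in any other sample. Apoe, the gene of apolipoprotein E, was at 274 to 337 FPKM in PCOS samples and 98.8 to 486 FPKM in 4 controls, but at 6.04 and 8.29 FPKM in control replicates 2 and 5. Member values are therefore also given without these libraries.

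Retnla was the most abundant of the 10 genes in control hearts and the seventh in PCOS hearts. It was at 1.86, 3.15, 0.350, 0.902 and 1.95 FPKM in PCOS replicates 1 to 5, against 12.04, 4.58, 6.96, 4.90, 4.65 and 9.37 FPKM in control replicates 1 to 6. No PCOS sample reached the lowest control, and both groups were spread widely, with PCOS replicate 3 lowest and control replicate 1 highest. The means were 1.64 ± 1.08 FPKM in PCOS (SD, n = 5) and 7.08 ± 3.06 FPKM in controls (SD, n = 6), a difference of −1.64 in mean log2(FPKM + 1) with a standard error of 0.34. Of the 10 members 1, Retnla, had all PCOS samples below all controls, and 0 had them all above. Over all tested rows this held for 0.248% and 0.45%. Since Retnla was chosen from this comparison, nothing is read from these counts.

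These levels rest on few reads. Retnla had 3 to 24 reads per PCOS sample and 33 to 94 per control sample, or 65 and 333 reads in all. The closest libraries were PCOS replicate 2, with 1.89 reads in 1 000 000 (95% exact Clopper-Pearson binomial interval 1.21 to 2.81), and control replicate 2, with 2.74 (1.94 to 3.76), and their intervals overlap. Control replicate 1, with 7.20 reads in 1 000 000, had an interval of 5.82 to 8.81. Intervals cover counting error only. The gene lies on chromosome 16 from 48842609 to 48844461 (GRCm38.p6, the assembly carried by mm10).

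**Figure D1:**
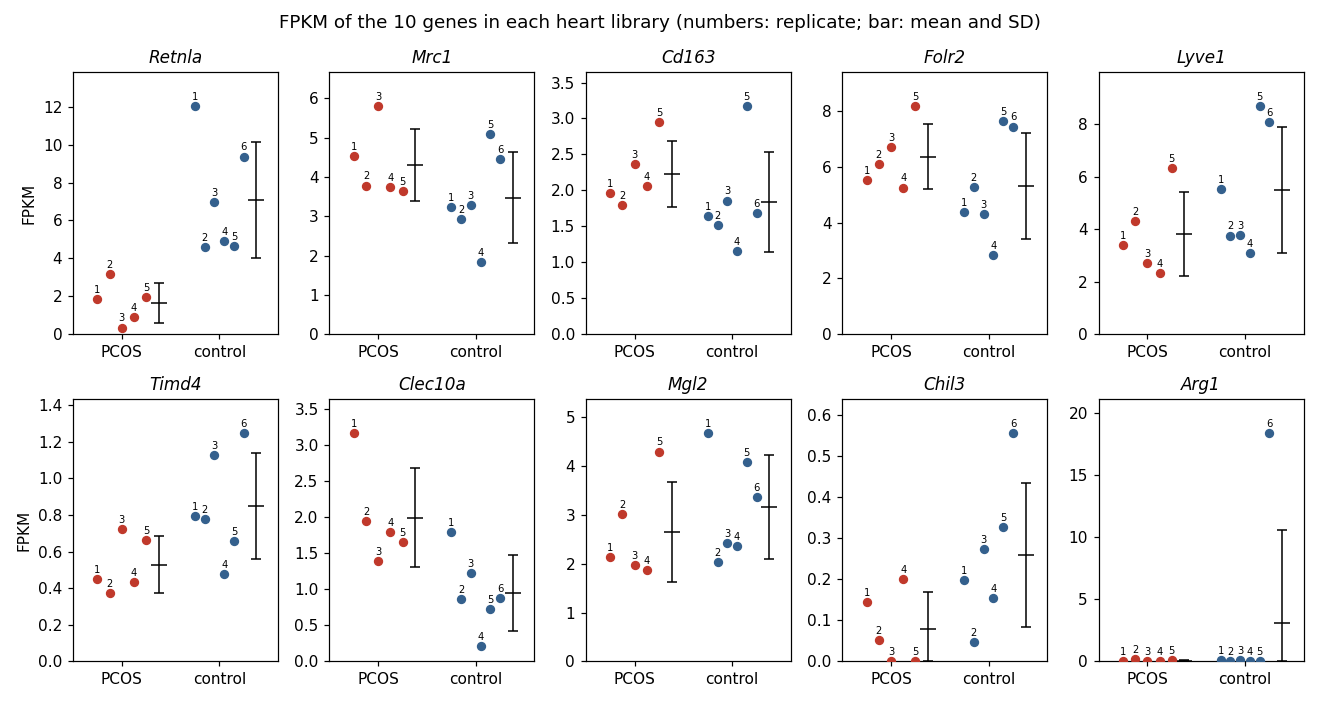
FPKM of the 10 genes in each library, PCOS left of control in every panel, with the replicate number above each point and the mean and SD as a bar that is cut at 0. Retnla has every PCOS point at or under 3.15 FPKM and every control point at or above 4.58 FPKM, while in the other 9 panels the groups overlap, and Arg1 is high in control replicate 6 alone.

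The difference in Retnla held its sign in all 20 alternatives computed for it. As every PCOS sample lay below every control, leaving out libraries or changing the pseudocount could not turn the sign. Only the size of the difference could move. It was −1.55 without control replicate 6, −1.86 without control libraries 2 and 5, and −1.79 without libraries 2, 5 and 6. With a pseudocount of 0.1 FPKM in place of 1 it was −2.23. Leaving out 1 library at a time gave −1.83 to −1.42.

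The receptors of resident macrophages overlapped between the groups, with higher PCOS means for Mrc1, Folr2 and Cd163 and lower ones for Lyve1 and Timd4. Mrc1 encodes the mannose receptor CD206, which clears glycoproteins and collagen fragments. It was at 4.54, 3.78, 5.81, 3.74 and 3.65 FPKM in PCOS replicates 1 to 5, against a lowest, median and highest control value of 1.83, 3.26 and 5.09 FPKM. All 5 PCOS samples lay above the control median, but control replicates 5 and 6 reached into the PCOS range, and the difference was 0.27 with a standard error of 0.20. It was 0.15 without control replicate 4, 0.18 without PCOS replicate 3 and 0.50 without control libraries 2, 5 and 6, so its size rests on single libraries.

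Folr2, the folate receptor beta of resident macrophages, was at 5.52, 6.11, 6.71, 5.25 and 8.18 FPKM in PCOS, against 2.83, 4.84 and 7.63 FPKM as the lowest, median and highest control. Control replicates 2, 5 and 6 reached into the PCOS range. The difference was 0.26 (standard error 0.22) with all libraries, 0.13 without control replicate 4 and 0.61 without control libraries 2, 5 and 6. Cd163, which takes up haptoglobin-bound haemoglobin, followed the same pattern at a lower level. It was at 1.97, 1.79, 2.36, 2.06 and 2.95 FPKM in PCOS, and in controls its lowest, median and highest values were 1.16, 1.67 and 3.17 FPKM, with control replicate 5 above every PCOS sample (difference 0.21, standard error 0.16). It was 0.13 without control replicate 4 and also without PCOS replicate 5, 0.32 without control replicate 5, and 0.34 without control libraries 2, 5 and 6.

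Lyve1 and Timd4 had lower means in PCOS, unlike the 3 receptors above. Lyve1, a receptor for the matrix sugar hyaluronan that lymphatic endothelium also carries, was at 3.38, 4.31, 2.73, 2.33 and 6.35 FPKM in PCOS, against 3.10, 4.66 and 8.69 FPKM as the lowest, median and highest control. The groups overlapped widely, and the difference of −0.41 (standard error 0.30) was −0.12 without control libraries 2, 5 and 6. Of 6 listed lymphatic endothelial genes 5 were tested and 0 passed, with a median difference of 0.07. Prox1, the transcription factor of lymphatic identity, averaged 6.72 ± 1.24 FPKM in PCOS and 7.95 ± 1.32 FPKM in controls, and the chemokine Ccl21a averaged 27.6 ± 11.3 FPKM in PCOS and 18.7 ± 9.95 FPKM in controls.

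Timd4, the phosphatidylserine receptor TIM-4 that binds dying cells, was scarce at 0.374 to 0.724 FPKM in PCOS and 0.480 to 1.25 FPKM in controls. That is 11 to 24 reads per PCOS sample and 14 to 37 per control sample. All 5 PCOS samples lay below the control median of 0.788 FPKM, and control replicates 4 and 5 lay within the PCOS range (difference −0.26, standard error 0.12). Without control libraries 1, 3 and 6 it was −0.10.

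The paired C-type lectins Clec10a and Mgl2, which bind galactose-type sugars and mark macrophages and dendritic cells, differed from each other. Clec10a was at 3.16, 1.94, 1.39, 1.80 and 1.65 FPKM in PCOS, against 0.211, 0.873 and 1.79 FPKM as the lowest, median and highest control. Control replicate 1 lay among the PCOS samples and control replicate 4 was far below the rest, with 4 reads against 30 to 64 reads per PCOS sample. The difference of 0.63 (standard error 0.22) is the largest upward one among the members. Mgl2 was at 2.13, 3.01, 1.97, 1.86 and 4.298 FPKM in PCOS, against 2.03, 2.90 and 4.67 FPKM as the lowest, median and highest control, with full overlap (difference −0.19, standard error 0.22). The Mgl2 difference was −0.09 without control replicate 1, between −0.12 and −0.11 without PCOS replicate 3, PCOS replicate 4 or control replicate 5, and −0.33 without PCOS replicate 5.

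The ratio of Clec10a to Mgl2 within a library was 0.384 to 1.48 in PCOS, with a median of 0.708, against 0.0896 to 0.505 in controls, with a median of 0.322. PCOS replicate 5 lay inside the control range. Both genes lie on chromosome 11, Clec10a from 70166623 to 70170836 and Mgl2 from 70130125 to 70137542. As the genes are closely related in sequence, the assignment of reads to one or the other is uncertain.

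Chil3 and Arg1, the other classical products of alternative activation, were near the limit of detection. Chil3, the secreted chitinase-like protein Ym1, had 0 to 4 reads per PCOS sample and 1 to 11 per control sample, or 0 to 0.2002 FPKM in PCOS and 0.0468 to 0.556 FPKM in controls. Its close copy Chil4 was listed at 0 in all 11 samples, and reads shared by such copies may have been lost in counting. Arg1, the arginase that macrophages share with the urea cycle of liver, had 0 to 3 reads per PCOS sample and 0 to 2 in 5 of the controls. Control replicate 6 held 348 reads of Arg1, or 18.3 FPKM, beside its liver transcripts. Arg1 reached a mean of 1 FPKM over the samples through this library alone, and its difference was −0.67 with it and 0.03 without it.

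Over the 10 members, 4 had a higher and 6 a lower mean log2 value in PCOS, with a median difference of −0.20 against 0.00 over all tested rows. The 6 include Arg1, whose difference was 0.03 without control replicate 6. The median of the members takes in Timd4 and Chil3, which were not tested. Of the members 8 reached a mean of 1 FPKM and entered limma's fit over 10891 rows. Of these 8, 0 passed an adjusted p of 0.05 in either direction, in a fit that called 0.138% of rows, all of them higher in PCOS. At an unadjusted p under 0.05 the fit had 345 rows lower and 382 higher, and voom on the recovered reads also called 0 rows lower. Some other fits did call rows lower. There was 1 each with median-ratio scaling, with quantile normalization and without PCOS replicate 2. There were 2 under the replicate block, 3 without control replicate 6 and 19 without control libraries 1, 3 and 6. Nothing is read from the members' count, because the contrast was used to choose them.

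**Figure D2:**
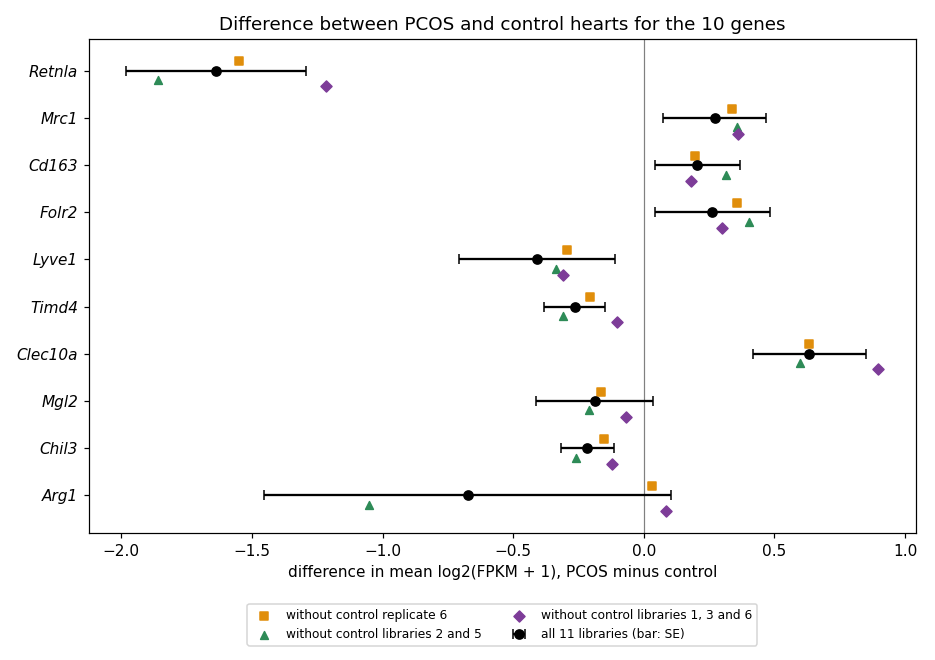
Difference in mean log2(FPKM + 1), PCOS minus control, for each gene, with its standard error, and the same difference with control libraries left out. Retnla stays between −1.86 and −1.21 in these 4 fits, and Arg1 is at −0.67 with all libraries and at 0.03 without control replicate 6.

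Within the groups, some members varied together and others did not. Group means were subtracted from log2(FPKM + 1), and the deviations were compared over the 11 samples, as a description of libraries that also share their depth and tissue make-up. Among Mrc1, Cd163, Folr2, Lyve1 and Mgl2 the 10 pairs had a Pearson r of 0.20 to 0.85, with a median of 0.65. Retnla had −0.19 to 0.61 with these 5 genes, with a median of 0.06. Its nearest members were Mgl2, with an r of 0.61, and Clec10a, with 0.60, against −0.12 with Mrc1 and −0.19 with Cd163. Without control replicate 1 and PCOS replicate 3, r with Retnla was 0.46 for Mgl2, 0.38 for Clec10a and 0.14 for Mrc1. It was then 0.54 for Arg1, 0.45 for Lyve1, 0.41 for Timd4 and −0.14 for Cd163, so the order of members rests in part on these libraries. Over all 11 samples Clec10a had only 0.02 to 0.26 with the 5 receptors, so it was closer to Retnla than to any of them. Mgl2 was closest to Lyve1, with 0.85, above its 0.61 with Retnla. It had 0.52 with Cd163, 0.50 with Folr2 and 0.20 with Mrc1. Timd4 had 0.09 to 0.52 with the 5 receptors and 0.10 with Retnla. Of the adipocyte genes compared, Adipoq, with an r of 0.61 (Spearman's rho 0.79), and Cfd, with 0.57 (rho 0.68), were about as close to Retnla as its nearest members. The r was lower for Plin1, at 0.47 (rho 0.70), Car3, at 0.45 (rho 0.65), and Cidec, at 0.42 (rho 0.56).

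The same can be read from single libraries. Control replicate 4 was the lowest control for 6 of the 10 members, and control replicate 5 was the highest control for 4, namely Mrc1, Cd163, Folr2 and Lyve1. For Retnla, control replicates 4 and 5 were alike, at 4.90 and 4.65 FPKM. PCOS replicate 3 was the highest PCOS sample for Mrc1 and the lowest for Retnla.

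**Figure D3:**
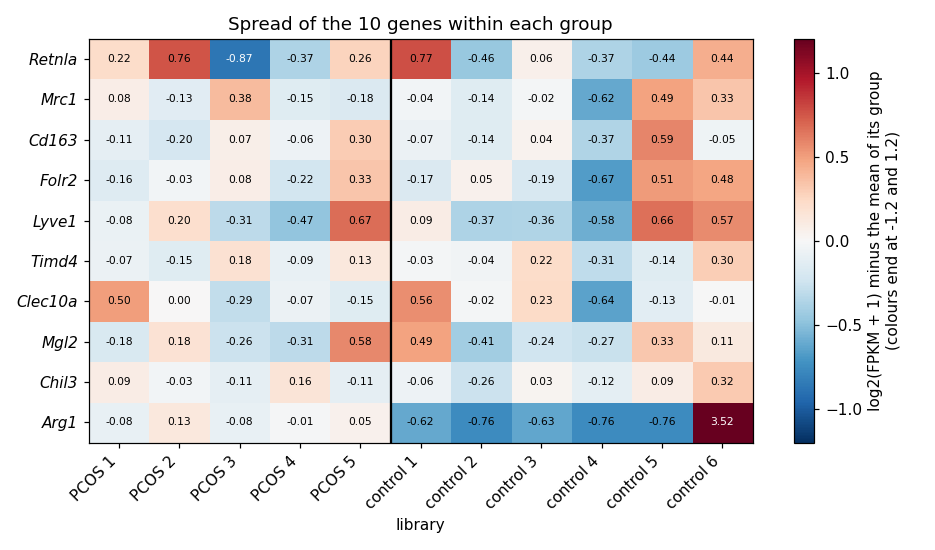
Deviation of log2(FPKM + 1) from the mean of its group for each gene and library, PCOS columns left of control columns, with colours that end at −1.2 and 1.2. Control replicate 5 is above its group mean for Mrc1, Cd163, Folr2 and Lyve1 and below it for Retnla, and Arg1 in control replicate 6 is 3.52 above its group mean.

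Retnla was also set against receptors of the same library. The ratio of Retnla to Mrc1 was 0.409, 0.834, 0.0602, 0.241 and 0.535 in PCOS replicates 1 to 5, against 0.914, 2.11 and 3.72 as the lowest, median and highest control. The highest PCOS ratio lay just under the lowest control ratio. The ratio to Folr2 was 0.0521 to 0.516 in PCOS and 0.610 to 2.74 in controls, again without overlap but with a narrow gap. With Lyve1 the ratios overlapped, at 0.128 to 0.732 in PCOS and 0.535 to 2.18 in controls, where control replicate 5 was lowest. These ratios use the same Retnla values and are no separate evidence.

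Most genes found in all macrophages had higher means in PCOS, and 1 passed the test. Of 15 listed, 12 had a row, 9 were tested, 8 had a difference above 0, and 1 passed, with a median difference of 0.55. Cd68, a lysosomal glycoprotein, rose to 17.6 ± 2.22 FPKM in PCOS, against 4.78 ± 1.66 FPKM in controls (log2 difference 1.73, standard error 0.17, limma adjusted p = 0.000298). Lyz2, the lysozyme of macrophages, averaged 164.1 ± 30.6 FPKM in PCOS and 95.4 ± 22.4 FPKM in controls (0.79, standard error 0.17, limma adjusted p = 0.152), and C1qa, a complement C1q chain, averaged 50.3 ± 9.75 FPKM in PCOS and 34.4 ± 8.80 FPKM in controls. The summed level of the 12 genes was 301 to 418 FPKM in PCOS and 143.8 to 274.5 FPKM in controls. The ratio of Retnla to Cd68 was 0.0189 to 0.202 in PCOS and 0.626 to 2.25 in controls.

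Adipose tissue is another known source of Retnla, and adipocyte genes varied between the libraries. Of 9 listed adipocyte genes 8 had a row, 4 were tested and 0 passed. Of the 4, Cfd, Pck1 and Car3 reached a mean of 1 FPKM only through control replicate 6, so nothing is read from their result. The summed level of the 8 genes was 10.2 to 17.3 FPKM in PCOS and 12.1 to 113 FPKM in controls. The 113 FPKM was control replicate 6 alone, where Car3 was at 64.0 FPKM and Pck1 at 26.2 FPKM. The next control reached 19.4 FPKM. Lipe, which heart muscle also expresses, made 9.54 to 15.2 FPKM of these sums. The adipokine gene Cfd (adipsin) was at 0.240, 0.678, 0.301, 0.582 and 0.865 FPKM in PCOS replicates 1 to 5, against 1.40, 0.0777, 1.52, 0.0854, 0.0909 and 7.14 FPKM in control replicates 1 to 6. The controls with the most Cfd, replicates 1, 3 and 6, were also those with the most Retnla. Adipoq, the gene of adiponectin, was listed at 0 in PCOS replicate 3 and in control replicates 4 and 5, and its highest value was 1.77 FPKM, in control replicate 6.

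Cfd was at 0.240 to 0.865 FPKM in PCOS, against 0.0777 to 0.0909 FPKM in control replicates 2, 4 and 5. Other adipocyte genes did not follow the same order: Car3 was at 0.241 and 0.317 FPKM in PCOS replicates 1 and 3, against 0.658 FPKM in control replicate 5, and Adipoq was at 0 to 0.296 FPKM in PCOS, against 0 to 0.0585 FPKM in these 3 controls. Retnla was at 0.350 to 3.15 FPKM in PCOS, against 4.58 to 4.90 FPKM in the same 3 controls. Against these 3 controls alone, a comparison added after the data were seen, the Retnla difference was −1.21. They were also the 3 controls with the least Retnla. Its sign was fixed beforehand, as every control lay above every PCOS sample. These 3 controls include both low-Apoe libraries. The part of adipose tissue in the Retnla difference was not tested.

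**Figure D4:**
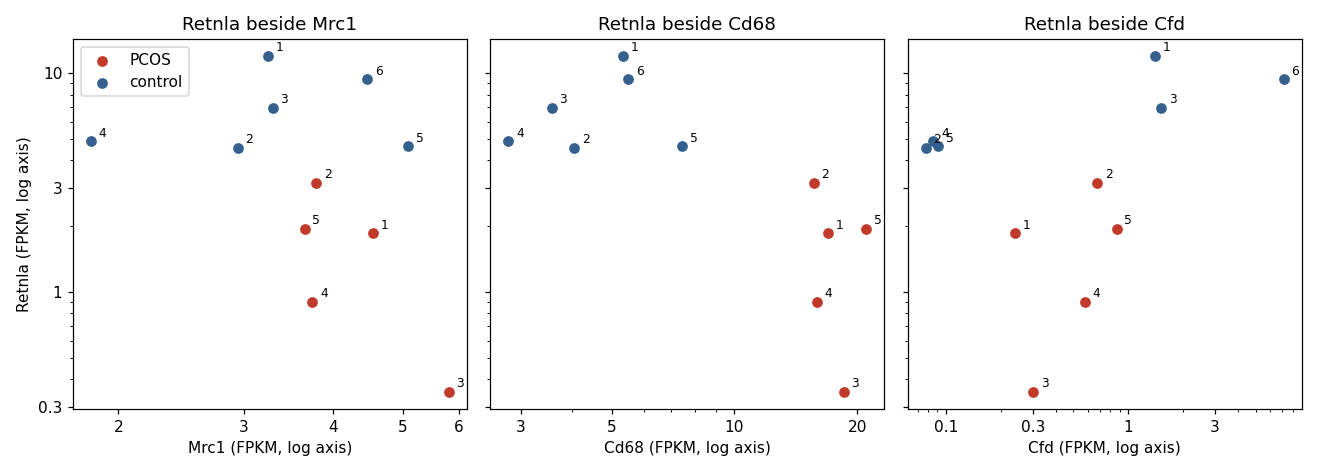
Retnla in each library beside Mrc1, Cd68 and Cfd, all in FPKM on log axes, with replicate numbers. PCOS points lie below control points in each panel, to the right of them for Cd68, and to the right of control replicates 2, 4 and 5 for Cfd.

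The interleukin-4 and interleukin-13 pathway, known to turn on Retnla in macrophages, was sampled through 12 genes, of which 11 had a row. Of these 8 were tested and 0 passed, with 6 differences above 0 and a median of 0.08. Il4 was at most 0.131 FPKM and Il13 was listed at 0 in all 11 samples, so neither cytokine could be compared at this depth. Transcript levels of the other genes do not show whether the pathway was active. Jak1, a kinase of the receptor complex, averaged 31.1 ± 2.27 FPKM in PCOS and 33.2 ± 3.25 FPKM in controls (−0.09, standard error 0.08, limma adjusted p = 0.808). Cish, a feedback inhibitor of cytokine signalling, averaged 36.5 ± 4.13 FPKM in PCOS and 33.55 ± 3.996 FPKM in controls. The receptor chain Il4ra, at 2.54 to 3.83 FPKM in PCOS and 2.27 to 3.43 FPKM in controls, and Stat6, at 16.2 to 18.7 FPKM in PCOS and 15.3 to 19.0 FPKM in controls, are named for their role in this pathway after their values were seen.

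Other genes of alternative activation gave little to compare: 9 of 10 had a row, 3 were tested and 0 passed. Tgm2, transglutaminase 2, averaged 81.2 ± 9.57 FPKM in PCOS and 93.9 ± 9.46 FPKM in controls (−0.21, standard error 0.09, limma adjusted p = 0.738). Klf4, a transcription factor of many cell types, averaged 33.0 ± 7.96 FPKM in PCOS and 33.8 ± 14.0 FPKM in controls. Both genes are abundant in other heart cells too. Genes of classical activation were as sparse, with 3 of 10 tested and 0 passing, Nos2 at 2.74 ± 0.284 FPKM in PCOS and 3.34 ± 0.610 FPKM in controls and Cd38 at 5.48 ± 0.6005 FPKM in PCOS and 6.07 ± 1.31 FPKM in controls.

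Further genes of resident macrophages, 12 listed and 9 tested, had 7 differences above 0, a median of 0.14 and 0 calls. The most abundant were Gas6, a bridging ligand for the uptake of dying cells, at 85.7 ± 3.37 FPKM in PCOS and 77.9 ± 6.94 FPKM in controls (0.14, standard error 0.07, limma adjusted p = 0.738), and Ninj1, at 42.3 ± 4.81 FPKM in PCOS and 43.4 ± 3.51 FPKM in controls. Gas6 and Ninj1 are also made by other heart cells. The partners of Cd163 in haem handling, 8 listed and all tested, had 4 differences above 0, a median of 0.00 and 0 calls. The ferritin chains Fth1 and Ftl1 averaged 2488 ± 132 and 461 ± 30.0 FPKM in PCOS, against 2462 ± 169 and 393 ± 105 FPKM in controls, with control replicate 6 highest for both.

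**Figure D5:**
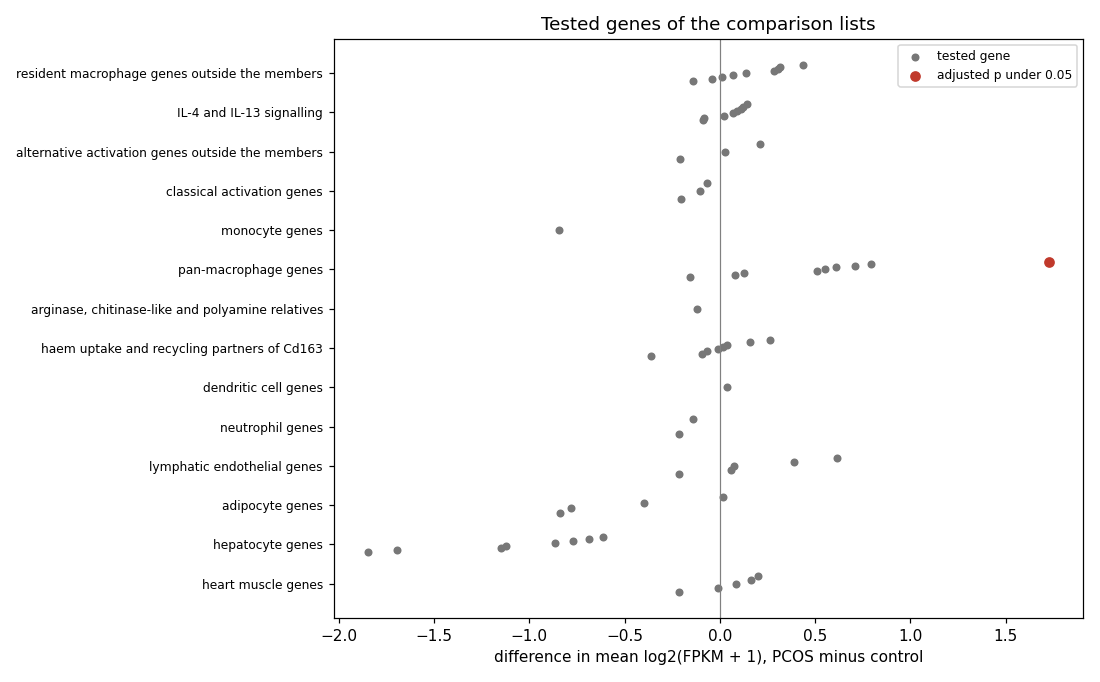
Difference in mean log2(FPKM + 1), PCOS minus control, of each tested gene in 14 comparison lists, 1 gene per point. Cd68, at 1.73, is the only point that passed, and the 8 hepatocyte genes lie below 0, all of them highest in control replicate 6.

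Relatives of Retnla were barely detected. Of the resistin family, Retn, the adipocyte-derived resistin of mice, was at 0 to 0.244 FPKM in PCOS and 0 to 0.968 FPKM in controls, highest in control replicate 6. Retnlg, a neutrophil and bone marrow product, was at 0 in 4 PCOS samples and 0.517 FPKM in the other, against 0.1302 to 1.07 FPKM in controls, while Retnlb was listed at 0 throughout. The neutrophil genes S100a8 and S100a9 averaged 2.18 ± 0.838 and 3.41 ± 1.53 FPKM in PCOS, against 2.87 ± 2.36 and 4.38 ± 2.49 FPKM in controls, and 0 of 2 tested neutrophil genes passed. Among relatives of Arg1 and Chil3, Odc1, which makes the polyamine putrescine, averaged 34.2 ± 4.75 FPKM in PCOS and 37.1 ± 2.99 FPKM in controls, and Chia1 was at most 0.137 FPKM.

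Monocyte, dendritic and liver macrophage genes were low. Of 8 monocyte genes 1 was tested, Hp, which is also a liver product and was at 53.4 FPKM in control replicate 6 and at most 1.08 FPKM elsewhere. Vcan, the other most abundant one, averaged 0.773 ± 0.124 FPKM in PCOS and 0.823 ± 0.207 FPKM in controls. Of 8 dendritic cell genes 1 was tested, the transcription factor gene Zbtb46, and it did not pass. Zbtb46 averaged 2.76 ± 0.337 FPKM in PCOS and 2.66 ± 0.362 FPKM in controls. Ccr7, the next most abundant, was at 0.234 to 1.09 FPKM in PCOS and 0.160 to 0.749 FPKM in controls. Clec4f, the defining gene of liver macrophages, was at most 0.262 FPKM in PCOS and 1.26 FPKM in control replicate 6, the library in which Timd4 was also highest, at 1.25 FPKM. Vsig4 was at most 1.41 FPKM in PCOS and 1.196 FPKM in controls. The part of liver macrophages in the Timd4 value of that library was not tested.

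The genes whose deviations within the groups were most like those of Retnla, among 9606 tested rows with a symbol, were Fam20a, Eogt, Csk, Ppan and Rbm39. Their Pearson r over the 11 samples ran from 0.96 for Fam20a and Eogt through 0.95 for Csk and 0.94 for Ppan to 0.93 for Rbm39, and Spearman's rho from 0.90 for Ppan to 0.98 for Fam20a. Without control replicate 1 and PCOS replicate 3, the samples farthest from the median in Retnla's deviation, r was 0.91 to 0.94. Their differences between the groups were small beside that of Retnla: Fam20a averaged 1.996 FPKM in PCOS and 2.06 FPKM in controls, and the log2 differences of the 5 genes ran from −0.03 to 0.15. They were picked as the highest of many values, so no p-value is attached.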

How the data were processed

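Heart RNA of 5 PCOS and 6 control samples was sequenced from libraries made with a TruSeq stranded mRNA kit, per the labels' protocols. The authors deposited FPKM per gene model and sample. Per the submitters' processing notes, the tools included HISAT2 2.2.1 and HTSeq 0.13.5, also Trimmomatic 0.38 and FastQC 0.11.9, with DESeq2 1.18.1 under R 3.4.1, on build mm10; settings and counted strand are not given in the sources used here. FPKM is relative within a library, so a large change in an abundant transcript moves every other value.

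Rows were named by RefSeq accession (GRCm38.p6), which matched 87.2%. Each row's FPKM values are whole multiples of 1 read: every one of the 15939 rows with 3 or more samples above 0 came out within 0.01 of a whole number, and 1490 of 1492 simulated rows came out right. The precision of each value follows from these reads.

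PCOS and control were compared by limma-trend (limma 3.58.1, R 4.3.3) on log2(FPKM + 1), over the 10891 rows whose mean reached 1 FPKM, adjusted by Benjamini-Hochberg over these rows with a threshold of 0.05. Log2 differences are PCOS minus control and understate the change of low genes. Standard errors of the members come from the pooled spread of the 2 groups, those of other genes from limma. Tested on simulated data of 10891 rows for this comparison, the fit called 74.6% of rows altered 1.5-fold, 94.0% at 2-fold and 100% at 3-fold. Of its 194 calls, 15 were false. The simulated noise was normal, with a spread set by the mean level alone and no outlying library. Folds were of FPKM + 1. These shares may therefore not hold for real rows, which can have a wider spread.

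The members and the 17 comparison lists (145 genes, 135 with a row) were chosen by function with earlier results of these data known. The text names all members, each list's called genes and its 2 most abundant, and the 5 genes most like Retnla; others are marked. Alternatives were the smaller pseudocount of 0.1, another filter (none, or a mean of 5), other scaling (quantile or median-ratio), a block on replicate number, voom on recovered reads, and leaving out libraries.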

Additional observations from a re-analysis of the deposited data

Results flagged for a closer look

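Among the members and the named genes, 90 sets of values (a gene in a group) were examined for 1 sample far from the others. Dixon's criterion picked out 18. Its chance rate of about 1 in 20 sets holds for normally distributed values. These are FPKM values, and a set with only 1 sample above 0 is always picked, so the 18 are not set against that rate. Of the 18, 9 were in control replicate 6.

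Among the members there were 2. Arg1 was at 18.3 FPKM in control replicate 6, against at most 0.104 FPKM in the other controls. Cd163 was at 3.17 FPKM in control replicate 5, against at most 1.86 FPKM in the other controls.

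The liver product genes Alb (852 FPKM), Apoa1 (274 FPKM) and Hp (53.4 FPKM) stood apart in control replicate 6, as did the liver macrophage gene Clec4f (1.26 FPKM). In the same library Car3 was at 64.0 FPKM, Retn at 0.968 FPKM and the ferritin chain Ftl1 at 593 FPKM, each above the other controls, and Jak1 was at 26.7 FPKM, below them.

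In PCOS replicate 2, Retnlg (0.517 FPKM), Retn (0.244 FPKM) and Apoa1 (0.318 FPKM) were above the other PCOS samples, all at levels of a few reads. Chia1 was at 0.137 FPKM in PCOS replicate 3 and at 0 in the other PCOS samples. In PCOS replicate 1, Ccr7 was at 1.09 FPKM and Tnnt2 at 10463 FPKM, both highest of their group. The lowest values that stood apart were Ccr7 at 0.160 FPKM in control replicate 4 and S100a8 at 0.744 FPKM in PCOS replicate 5.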

How the results depend on the processing

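The difference of Retnla was −2.23 with a pseudocount of 0.1 and −2.30 with voom on the recovered reads, each farther from −1.64 than the spread between replicates; leaving out 1 library at a time gave −1.83 to −1.42. The filter at a mean of 5 left 1 member, Folr2. Signs of the other members held in every alternative computed, except Arg1, which was above 0 without control replicate 6 (0.03), under the replicate block (0.03) and without control libraries 1, 3 and 6 (0.08). Timd4 (−0.57), Chil3 (−1.01) and Clec10a (1.13) moved by more than that spread with the pseudocount of 0.1, as did Clec10a with voom (1.201).

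The count of called rows was 15. It was 5 with the filter at a mean of 5, 25 under the replicate block, 63 without control libraries 1, 3 and 6 (44 higher and 19 lower, a fit added after the data were seen that keeps 3 controls), and 10 to 32 when 1 library was left out, with 32 without control replicate 6. Nothing in the labels says that replicate numbers pair the samples. Deviations of same-numbered samples correlated at −0.12 to 0.25, and for none of the 5 PCOS samples was the own number the best partner. Such correlations cannot exclude a pairing, since single libraries that stand apart also shape them. Only control replicate 6 carries its number, so the block fit leaves it out in effect.

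Among the lists, called genes were added in 4 fits. Without control replicate 6, and with the replicate block, Lyz2 and Tyrobp joined Cd68, and the block also called Ftl1. Without control libraries 2, 5 and 6, Lyz2, C1qb and C1qc did, and without 1, 3 and 6 Ryr2 was called lower. Depth limits Chil3, Arg1, Timd4 and the cytokine genes most, with few or no reads per library.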

Other observations

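Mast cell genes were detected at low levels in every group. Cma1, a mast cell chymase, was at 0.575 to 1.54 FPKM in PCOS and 0.232 to 0.712 FPKM in controls, with means of 0.971 ± 0.413 FPKM (SD, n = 5) in PCOS and 0.470 ± 0.181 FPKM (SD, n = 6) in controls. Mcpt4, a further chymase, averaged 0.968 ± 0.622 FPKM in PCOS and 0.661 ± 0.286 FPKM in controls. Both are under the mean of 1 FPKM and were not tested. Eosinophil genes gave almost no reads: Epx was listed at 0 in all 11 samples and Siglecf was at 0 in all 5 PCOS samples. Of the 13 listed eosinophil, type 2 lymphoid and mast cell genes, 12 had a row and 0 reached the filter.

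In the haem-handling list, Blvrb, biliverdin reductase B, spanned 16.9 to 18.8 FPKM over PCOS samples, against 40.9 FPKM in control replicate 2, 41.1 FPKM in control replicate 5 (both low in Apoe) and no more than 21.8 FPKM in the remaining controls. It is named after its values were seen.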
